A study of Saccharomyces cerevisiae with 8 samples.

Results

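Budding yeast carrying 1 or the other of 2 engineered alleles of GCR1 were compared during exponential growth on glucose, with 4 libraries of the 8 in the series. Gcr1 is a DNA-binding activator of the genes of glycolysis, and the labels tie its 2 forms to the processing of the intron of its gene. Strain U (JHY9100, BY4741 GCR1 (∆1-574)) stands for the form Gcr1(U), and strain S (JHY9200, BY4741 GCR1 (∆4-742)) for the form Gcr1(S). From where the deleted positions are counted is not stated in the labels. All libraries came from whole cells grown in YPD, a rich medium, with 2% glucose and no treatment, 10 mL in a 50 mL flask, shaken at 170 rpm and 30 °C after a start at OD600 0.5. The members compared are the libraries taken at 6 h, 2 of U and 2 of S, numbered 1 and 2 in each strain, and every comparison is S minus U. The other 4 libraries, taken at 12 h after the diauxic shift, entered the fit for its estimate of the spread. Each strain carries 1 engineered allele, no unmodified GCR1 strain was analysed here, and the labels do not say whether libraries 1 and 2 came from separate cultures or whether the libraries of 1 number were taken on the same occasion. The p-values therefore measure the spread between these libraries, which may be technical.

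Yeast on abundant glucose ferments it to ethanol through glycolysis, whose enzymes are among the most abundant proteins of the cell. Gcr1 acts with Gcr2 and Rap1 at the promoters of these genes and binds the short motif CTTCC. GCR1 has an intron close to the start of its reading frame, after a very short first exon. In the RefSeq R64 annotation the first exon of GCR1, on the plus strand of chromosome XVI, holds 8 coding bases, and the intron of 751 bases runs from 412262 to 413012. The sequences at both ends of the intron are shown because the labels tie the forms of Gcr1 to its processing, with the exons in capitals in both lines and, in the second line, also the branch-point sequence near the end of the intron.
GCR1 exon 1 and start of the intron, chrXVI:412254-412301: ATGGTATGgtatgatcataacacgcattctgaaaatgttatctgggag
GCR1 end of the intron and start of exon 2, chrXVI:412953-413032: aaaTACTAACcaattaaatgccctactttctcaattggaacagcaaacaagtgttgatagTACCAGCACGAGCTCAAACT

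Promoters of 3 glycolytic genes are shown for the density of the Gcr1 motif in them, with CTTCC and its reverse complement GGAAG in capitals and each window read along the gene's own strand, also from RefSeq R64. The windows start 338, 495 and 440 bases before the start codons of CDC19, PGK1 and TPI1.
CDC19, chrI:71448-71547, plus strand: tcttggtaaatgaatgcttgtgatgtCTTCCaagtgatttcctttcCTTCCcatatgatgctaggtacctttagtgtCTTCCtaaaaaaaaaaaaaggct
PGK1, chrIII:137251-137350, plus strand: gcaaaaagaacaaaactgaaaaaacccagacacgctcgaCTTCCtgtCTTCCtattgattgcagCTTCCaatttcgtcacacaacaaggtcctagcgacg
TPI1, chrIV:556813-556912, minus strand: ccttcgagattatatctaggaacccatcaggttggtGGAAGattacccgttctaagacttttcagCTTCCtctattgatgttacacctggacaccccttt

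Values are FPKM, sequenced fragments scaled to gene length and library size, and tests were made with limma on log2(FPKM + 1), so that fold changes of low rows are understated. The sums of FPKM of the 4 libraries lay between 1509870 and 1548312 and their medians between 38.8 and 45.7. The number of reads is unknown, but their ratios could be recovered from the steps between the lowest values: relative to library 1 of U, library 2 of U held 1.01 times as many reads, library 1 of S 1.56 times and library 2 of S 0.895 times. Genes deleted from BY4741, a haploid of mating type a, matched that background. LEU2, MET17 and URA3 were listed at 0 in every library, while HIS3, of which BY4741 lacks only an internal part, had 132 and 283 FPKM in U and 137 and 231 in S. The a-factor gene MFA1 had 625 to 1458 FPKM and the α-factor receptor gene STE2 925 to 1075. Of the genes of the opposite mating type, the a-factor receptor gene STE3 had at most 4.16 and MF(ALPHA)1 at most 1.52. MF(ALPHA)2 and SAG1 were not as low, with 10.4 to 18.5 and 26.6 to 32.5 FPKM. HXT3, a transporter gene induced by glucose, had 1920 and 3600 FPKM in U and 1940 and 3620 in S, and the glucose-repressed gluconeogenesis gene PCK1 had at most 5.04. The hexokinase gene HXK1, also known to be repressed by glucose, had 1236 and 416 FPKM in U and 1570 and 173 in S. GLK1, TDH1 and PYK2 were likewise higher in library 1 of both strains, whereas FBP1 and ICL1 were lower there. Libraries 1 and 2 thus differed in such genes.

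Few transcripts separated the strains on glucose. Of 6339 rows tested, 5 were called at an adjusted p under 0.05, which is 0.0789% of them, and all 5 were listed at 0 in both libraries of 1 strain. Of these, 2 were above 0 in S alone (0.0316%) and 3 in U alone (0.0473%). A pair of libraries both listed at 0 shows no spread, so the p-values of the 5 called rows rest partly on such pairs. An unadjusted p under 0.05 was reached by 56 rows. When rows with a 0 in any of the 8 libraries were left out, 0 of 6143 rows were called and 38 had an unadjusted p under 0.05. The fit holds no term for the library number. A difference between libraries 1 and 2 therefore counts as spread and widens the intervals where it is large. With library number as a block within each time, 5 of 6339 rows were called and 247 had an unadjusted p under 0.05.

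SNR18 encodes the C/D-box small nucleolar RNA U18, which guides methylation of ribosomal RNA and lies within EFB1, the gene of a translation elongation factor. Its values were 4386 and 4361 FPKM in the libraries of U, and S had 0 in both. The adjusted p was 1.6e-06 (limma). Here and in the next rows no fold change is given, since against a value of 0 its size depends on the pseudocount. EFB1 around it had 4173 and 3160 FPKM in U and 3856 and 3538 in S, so that the strains overlapped there. Its sequence is shown because it is the row with the lowest p of the comparison, with the C box and D box in capitals.
SNR18, chrI:142367-142468, plus strand: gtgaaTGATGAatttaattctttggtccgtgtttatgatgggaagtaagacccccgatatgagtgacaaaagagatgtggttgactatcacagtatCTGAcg

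The remaining rows above 0 in U alone carry systematic names that are not in the annotation used. YMR272W-A had 123.7 and 123.9 FPKM in U and 0 in S (adjusted p = 0.00032, limma). YCR038W-A had 33.7 and 33.8 FPKM in U and 0 in S (adjusted p = 0.00032, limma). Both libraries of U were nearly alike in each of these rows.

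The rows above 0 in S alone are short reading frames, PLS1 of 123 bp between RAS2 and PHO23, and CPP3 of 156 bp between YDR034C-A and ARO3. PLS1 had 0 in both libraries of U, and 58.8 and 50.4 FPKM in S (adjusted p = 0.0013, limma). CPP3 likewise had 0 in U, and 10.1 and 8.80 FPKM in S (adjusted p = 0.0011, limma). The call of PLS1 was lost when either 6 h library of S was left out, with adjusted p = 0.0638 without library 1 and 0.0576 without library 2, and with a pseudocount of 0.1 (adjusted p = 0.15, limma). The call of CPP3 was lost when the 6 h libraries were fitted alone (adjusted p = 0.147, limma). Their sequences are shown for their length, with start and stop codons in capitals.
PLS1, chrXIV:440797-440919, minus strand: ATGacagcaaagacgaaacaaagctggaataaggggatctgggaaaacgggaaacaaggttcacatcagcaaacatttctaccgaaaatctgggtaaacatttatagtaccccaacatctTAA
CPP3, chrIV:521314-521469, plus strand: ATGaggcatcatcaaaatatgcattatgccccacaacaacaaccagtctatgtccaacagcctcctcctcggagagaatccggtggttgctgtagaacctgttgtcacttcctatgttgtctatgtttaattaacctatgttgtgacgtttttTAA

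**Figure D1:**
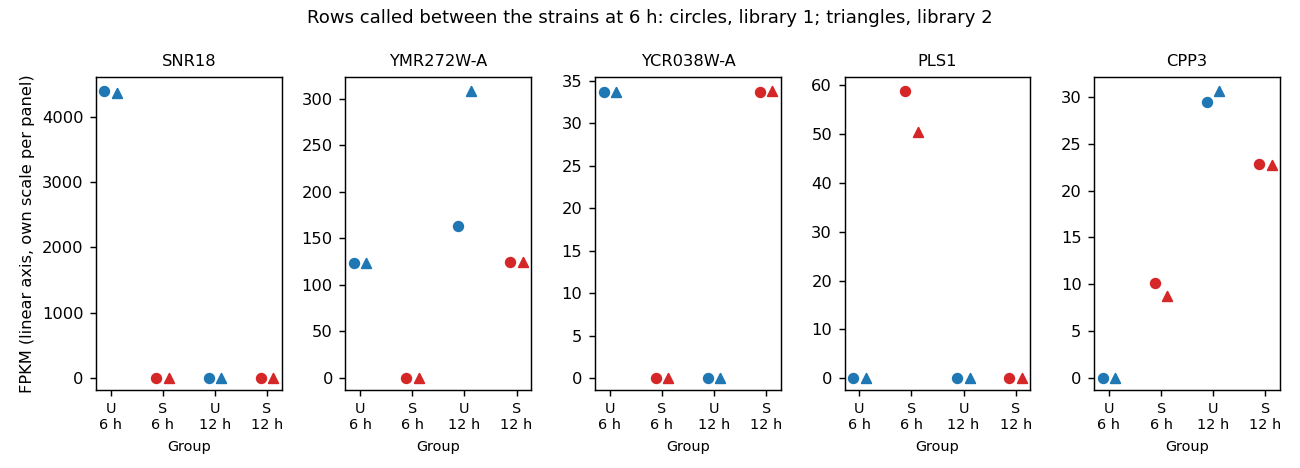
FPKM (linear axis with its own scale in each panel) of the 5 rows called between the strains at 6 h, for each library of U (blue) and S (red) at 6 h and 12 h, with circles for library 1 and triangles for library 2. Each of the 5 sits at 0 in both libraries of 1 strain at 6 h, and SNR18 sits at 0 in every library other than the pair of U at 6 h.

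The ratios between the libraries in these rows were set beside those that small whole numbers of reads would give. The read numbers, at most 5, were picked for their closeness to each ratio, so a close match is not a test. In S, library 1 over library 2 was 1.17 for PLS1 and 1.15 for CPP3, against 1.149 for the ratio that 2 reads and 1 read would give at the recovered depths. In U, the ratio was 1.01 for SNR18, 0.999 for YMR272W-A and 0.997 for YCR038W-A, against 1.014 for equal numbers of reads, while 3.44% of the 6217 rows above 0 in both libraries of U were alike within 1%. The number of reads behind a value cannot be recovered from such ratios. Short rows reached high values at the lowest step: among rows shorter than 150 bp the lowest value above 0 was 8.91 FPKM and 107 of 131 rows were listed at 0 in all 4 libraries, whereas among rows of at least 1000 bp the lowest value was 0.01. SNR18 and PLS1 are shorter than 150 bp. At 102 bp SNR18 is hardly longer than a read of 100 sequencing cycles. The lowest value among rows of a length range is not the lowest step of each row in it. CPP3 falls among rows from 150 to under 200 bp, where the lowest value was 2.11 FPKM and 17 of 88 rows were at 0 in all 4 libraries. YMR272W-A and YCR038W-A have no annotated length. In all, 17 rows were at 0 in both libraries of 1 strain and above 0 in both of the other, 11 above 0 in S and 6 in U, and the 12 that were not called had values between 0.84 and 13.1 FPKM where present. The part of read number in these differences was not tested.

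Across all rows the strains differed less than libraries 1 and 2 of the same strain did. The median log2 difference between the strains was -0.0027 and the median absolute difference 0.0729. Within number 1 the median absolute difference was 0.10 and within number 2 it was 0.139, whereas library 1 differed from library 2 by a median of 0.270 in U and 0.356 in S. For 4919 of the 6339 rows, 77.6%, the 95% interval of the strain difference lay within 1 of 0 on the log2 scale, which is less than a 2-fold difference. The remaining rows had wider or displaced intervals, so a larger strain difference was not limited there.

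The number difference was shared by both strains and the strain difference was not shared by both numbers. Over the 5572 rows above 0 in all 4 libraries with a mean of at least 10 FPKM, the difference between library 1 and library 2 in U correlated with that in S with r = 0.872 (Spearman's rho = 0.829). The strain difference within number 1 correlated with that within number 2 with r = -0.101 (Spearman's rho = -0.172). Over all 6339 tested rows, which include low values and values of 0, the former was r = 0.641 (rho = 0.761) and the latter r = 0.0639 (rho = -0.137). These are descriptions across genes, which share their 4 libraries and are not independent. Library 1 was above library 2 by at least 1 (log2) in both strains in 234 rows (3.69%) and below in 93 (1.47%). The strains were apart by at least 1 in the same direction in both numbers in 24 rows (0.379%), 13 of them with S above (0.205%) and 11 with S below (0.174%), and in 2 once rows with a 0 were left out.

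**Figure D2:**
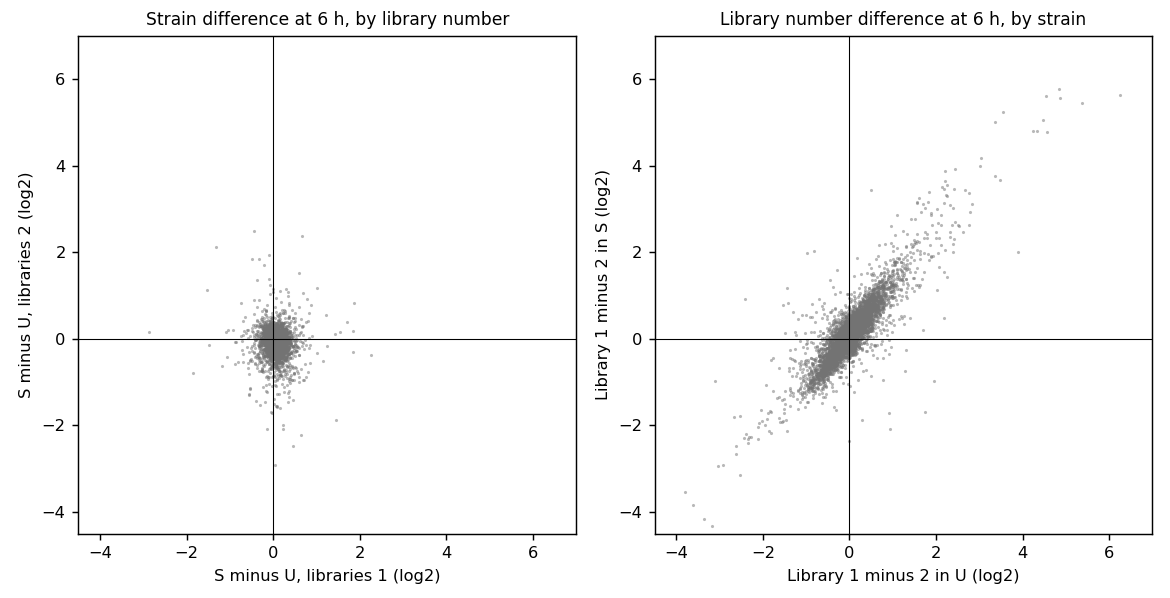
Each point is 1 of the 5572 rows above 0 in the 4 libraries at 6 h with a mean of at least 10 FPKM, and all axes are log2 differences. The left panel sets the strain difference in libraries 1 against that in libraries 2, where points gather around 0 (r = -0.101), and the right panel sets library 1 minus library 2 in U against the same in S, where points follow a diagonal (r = 0.872).

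Of the glycolytic transcripts 12 were slightly higher in S and 5 lower, and none of them passed the test. Of the 17 genes of the list, 0 were called, 7 had both libraries of S above both of U and 0 the reverse, against 5.77% and 4.89% of all rows. In both numbers 11 of the 17 were above U and 1 was below, against 20.7% and 19% of all rows. The median difference over the list was 0.14, with 0.18 within number 1 and 0.11 within number 2, beside -0.0027 over all rows. As single libraries were left out, the list median ran from -0.05 to 0.42, so its sign changed. The 95% interval lay within 1 of 0 in 9 of the 17, beside 77.6% of all rows.

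CDC19, the main pyruvate kinase gene, had 1279 and 1384 FPKM in U and 1785 and 1800 in S. TDH2, which encodes a glyceraldehyde-3-phosphate dehydrogenase, had 2212 and 2172 FPKM in U and 2924 and 2912 in S. Enolase gene ENO2 had 6586 and 4856 FPKM in U and 7932 and 7625 in S. In each of the 3 genes both libraries of S lay above both of U. The difference was 0.43 for CDC19 (95% interval -0.12 to 0.98), 0.41 for TDH2 (-0.13 to 0.96) and 0.46 for ENO2 (-0.28 to 1.19), and each had adjusted p = 1 (limma).

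The first steps of the pathway were measured by HXK2, PGI1 and the phosphofructokinase genes. Hexokinase gene HXK2 had 1654 and 1407 FPKM in U and 1518 and 1358 in S, a difference of -0.09 (95% interval -0.52 to 0.34), and the strains overlapped. PGI1, phosphoglucose isomerase, had 1353 and 1388 FPKM in U and 1552 and 1428 in S, with both libraries of S the higher. The phosphofructokinase subunit gene PFK1 had 367 and 362 FPKM in U and 433 and 388 in S, again without overlap, whereas its partner PFK2 had 288 and 336 in U and 318 and 334 in S. The interval of PFK2, -0.32 to 0.46, bounds a difference in either direction at less than 1.

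Among the most abundant members, the aldolase gene FBA1 had 12387 and 12603 FPKM in U and 13960 and 13583 in S, and the triosephosphate isomerase gene TPI1 had 4854 and 4291 in U and 5466 and 5307 in S. In both genes the libraries of S lay above those of U, with differences of 0.14 and 0.24. TDH3, the major glyceraldehyde-3-phosphate dehydrogenase gene, had 15494 and 9875 FPKM in U and 15757 and 11822 in S. Phosphoglycerate kinase gene PGK1 had 2895 and 1702 FPKM in U and 3097 and 1909 in S. In TDH3 and PGK1 library 1 exceeded library 2 in both strains by more than the strains differed, and the strain differences were 0.14 and 0.13. The same held for GPM1, phosphoglycerate mutase, and for the enolase gene ENO1, with strain differences of 0.15 and 0.25.

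HXK1, GLK1, TDH1 and PYK2 encode isozymes of glycolysis that are known to be repressed by glucose. HXK1, a second hexokinase gene, had 1236 FPKM in library 1 and 416 in library 2 of U, and 1570 and 173 in S. GLK1, the glucokinase gene, had 683 and 155 FPKM in U and 724 and 63.1 in S. TDH1 had 1070 and 422 FPKM in U and 1290 and 239 in S, and the minor pyruvate kinase gene PYK2 had 47.0 and 17.0 in U and 47.5 and 9.54 in S. In all 4 genes S was above U in library 1 and below it in library 2, and library 1 was the higher in both strains. PFK2 had the same signs, with 0.14 within number 1 and -0.0083 within number 2.

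**Figure D3:**
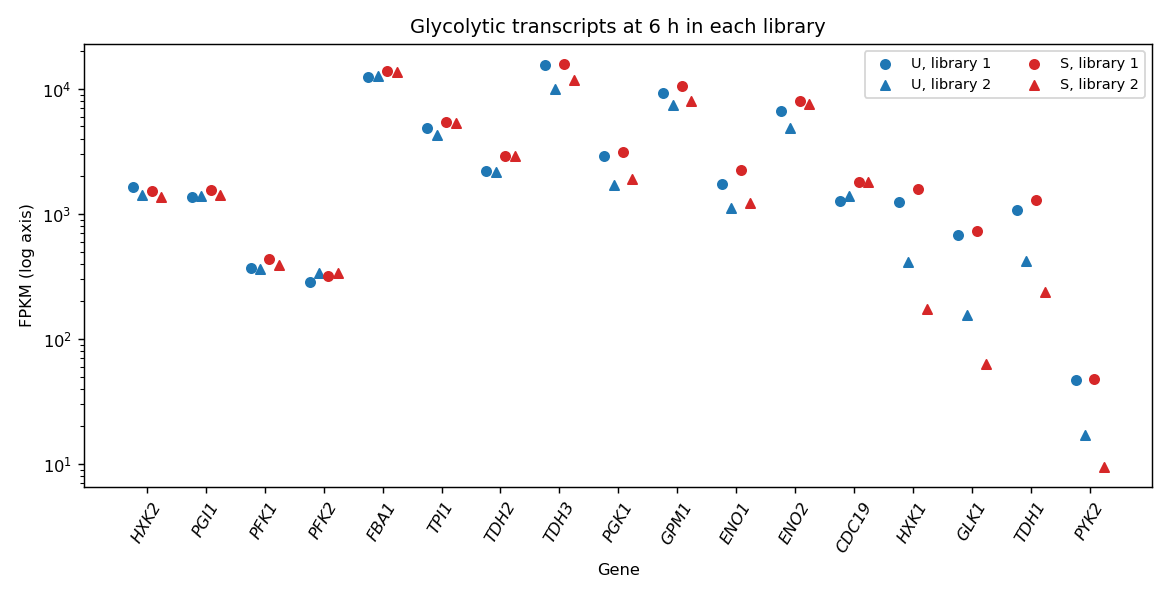
FPKM (log axis) of the 17 glycolytic genes in each library at 6 h, with U in blue, S in red, circles for library 1 and triangles for library 2. In CDC19 and TDH2 both red points sit above both blue points, while in HXK1, GLK1, TDH1 and PYK2 circles sit above triangles in both colours.

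**Figure D4:**
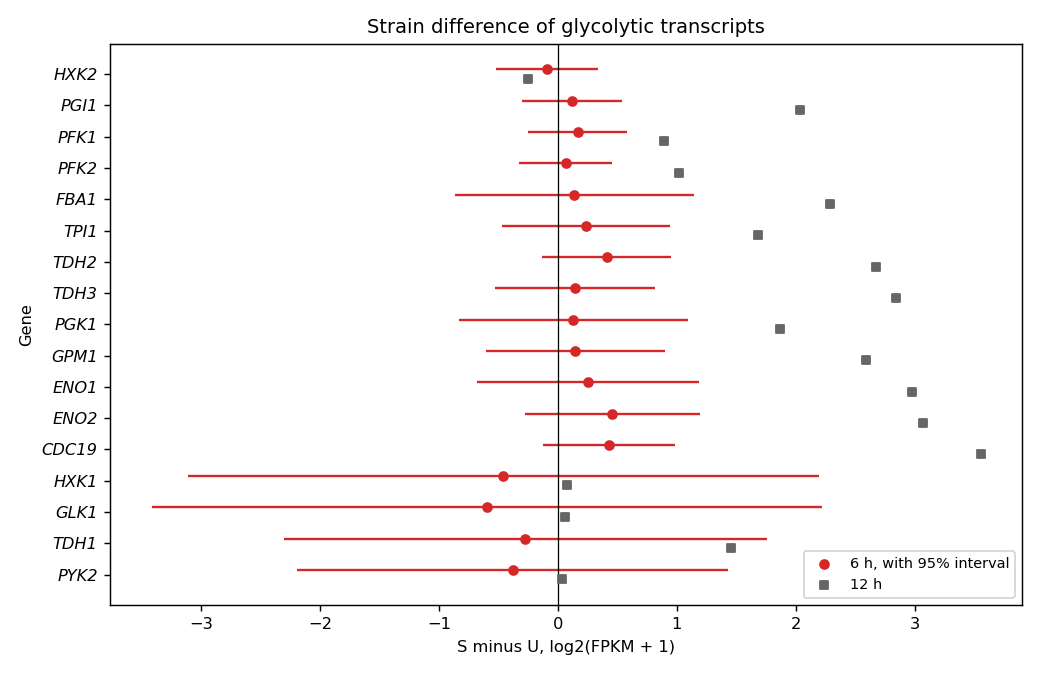
Strain difference, S minus U on the log2(FPKM + 1) scale, of each glycolytic gene at 6 h with its 95% interval (red) and, for scale, the difference at 12 h without its interval (grey squares). Each interval at 6 h includes 0, and for CDC19 the point moves from 0.43 at 6 h to 3.56 at 12 h.

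In the same fit the median glycolytic difference at 12 h was 1.87 over the list, and CDC19, TDH2, PGI1, TDH3 and ENO2 were called then. HXK1, GLK1 and PYK2 differed by 0.08, 0.06 and 0.03 at 12 h, each less in size than at 6 h. TDH1 went the other way, with 1.45 at 12 h against -0.27 at 6 h, and was not called at either time. CDC19 differed by 3.56 at 12 h and the change of its strain difference between the times was 3.13, with adjusted p = 0.053 (limma), just outside the threshold. None of the glycolytic genes was called for that change.

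GCR1 itself was the member of its own group with the largest difference. It had 60.9 and 40.2 FPKM in U and 143.2 and 58.9 in S. Library 1 of S stood above the other 3, and library 2 of S lay between the libraries of U. The difference was 0.88 (95% interval -0.12 to 1.88; adjusted p = 1, limma), 1.22 within number 1 and 0.54 within number 2, and it ran from 0.25 without library 1 of S to 1.51 without library 2 of S. FPKM is scaled to a gene length, and the labels do not say which length stood for the shortened alleles, so a level per length of GCR1 cannot be compared between the strains with certainty.

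Of the partners of Gcr1, only TYE7 had libraries of the strains that did not overlap, beside 10.7% of all rows in either direction. GCR2, the gene of its coactivator, had 66.3 and 71.1 FPKM in U and 67.8 and 73.9 in S, and RAP1, the gene of the DNA-binding protein that acts beside Gcr1, had 47.5 and 65.2 in U and 50.7 and 67.8 in S. The strains overlapped in both genes. TYE7, a further activator gene of glycolysis, had 364 and 368 FPKM in U and 293 and 272 in S. Both libraries of S were below both of U, by 0.37 (95% interval -0.85 to 0.11; adjusted p = 1, limma). PDC2, an activator gene of pyruvate decarboxylase, differed by -0.0032 with opposite signs in the 2 numbers.

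Of the genes of ethanol formation none passed the test. Pyruvate decarboxylase gene PDC1 had 6445 and 4794 FPKM in U and 6942 and 6339 in S, a difference of 0.26. ADH1, the main fermentative alcohol dehydrogenase gene, had 7322 and 6304 FPKM in U and 7959 and 7515 in S, a difference of 0.19 without overlap. ADH5, a minor alcohol dehydrogenase gene, had 89.9 and 209 FPKM in U and 71.8 and 125 in S, lower in S in both numbers. Of the 7 genes of the list, 0 were called, 1 lay without overlap above U (5.77% of all rows), and the median difference was 0.13.

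No hexose transporter gene and no gene of gluconeogenesis passed the test. Of 15 transporter genes tested, 0 were called, 3 lay without overlap above U and 0 below (5.77% and 4.89% of all rows), and the median difference was 0.08. HXT2, a high-affinity transporter gene, had 455 and 180 FPKM in U and 584 and 256 in S, above U in both numbers but lower in library 2 of both strains. Of 14 genes of gluconeogenesis and the glyoxylate cycle, 0 were called and the median difference was 0.02. FBP1, the fructose-1,6-bisphosphatase gene, had 7.86 and 13.5 FPKM in U and 8.03 and 9.64 in S, and ICL1, isocitrate lyase, 23.7 and 36.5 in U and 25.2 and 33.4 in S.

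Respiratory genes were below U in library 2 and near it in library 1. The median over 32 respiratory chain and ATP synthase genes was -0.10, with 0.00 within number 1 and -0.19 within number 2, and 13 were below U in both numbers against 1 above, beside 19% and 20.7% of all rows. COX7, a cytochrome c oxidase subunit gene, had 551 and 415 FPKM in U and 428 and 273 in S, so that the strains overlapped and both numbers were lower in S. Over 16 genes of the TCA cycle the median was -0.09. 0 genes of either list were called.

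**Figure D5:**
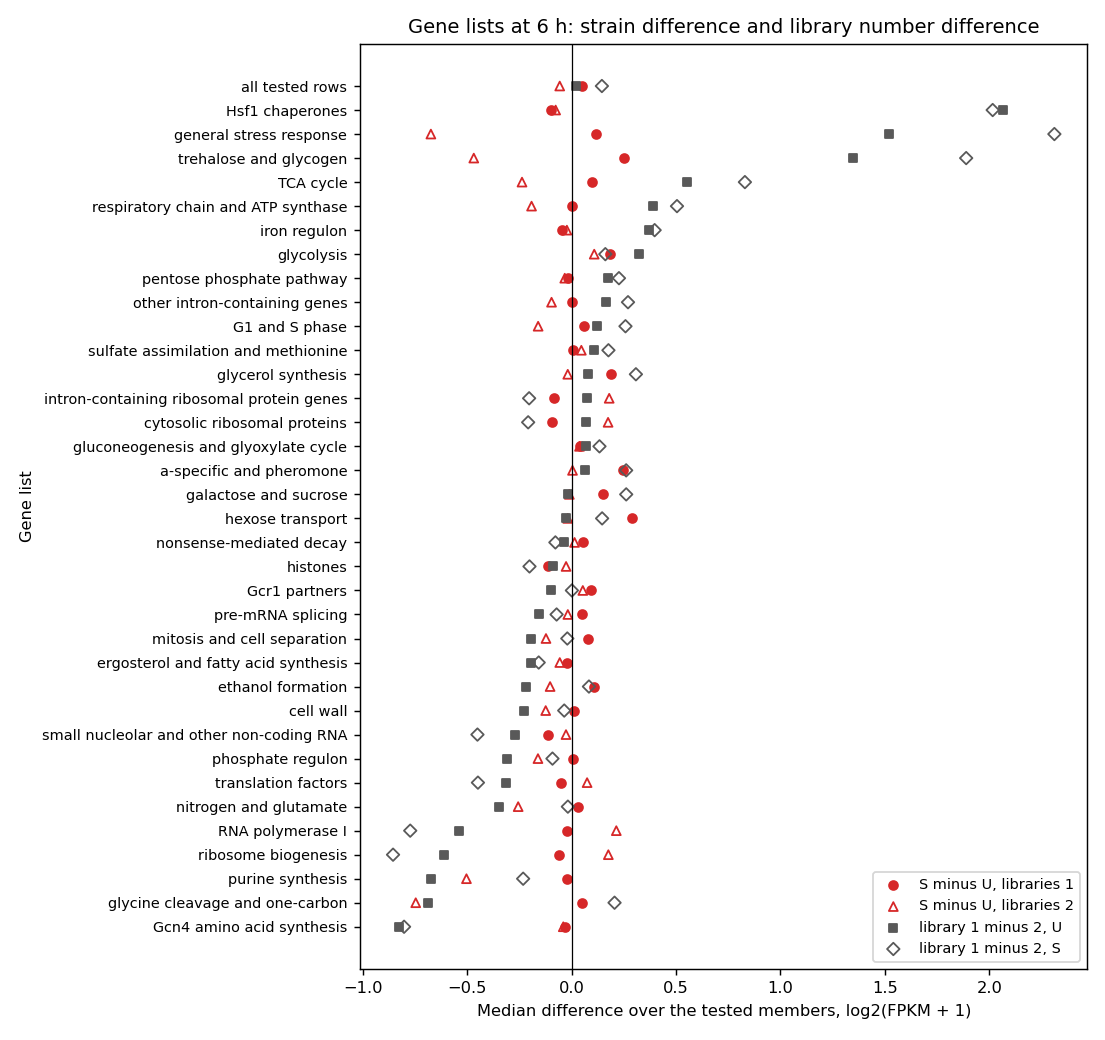
Median differences over the tested members of each gene list at 6 h, on the log2(FPKM + 1) scale, for S minus U in libraries 1 and 2 (red circles and triangles) and for library 1 minus library 2 in U and S (grey squares and diamonds), with all tested rows at the top. Chaperone, stress and storage carbohydrate lists reach 1.35 to 2.31 between the library numbers, while the strain medians stay between -0.75 and 0.29.

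Chaperone genes differed far more between the library numbers than between the strains. All 26 target genes of the heat shock factor Hsf1 were higher in library 1 than in library 2 of both strains, beside 2940 of all 6339 rows. The median excess was 2.07 in U against 2.02 in S. The strain medians were -0.10 within number 1 and -0.08 within number 2. SSA2, an Hsp70 gene, had 1760 and 417 FPKM in U and 1611 and 506 in S. HSP42, a small heat shock protein gene, had 1163 FPKM in library 1 and 39.9 in library 2 of U, and 1088 and 19 in S. In both genes library 1 stood far above library 2 in either strain, and for HSP42 the 95% interval of the strain difference ran from -5.70 to 4.57. 13 of the 26 were below U in both numbers (19% of all rows) and 0 were called.

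The median of the general stress genes differed in sign between the numbers. Of 30 genes, 8 were below U in both numbers and 0 above (19% and 20.7% of all rows), and 28 were higher in library 1 in both strains (2940 of all 6339 rows). The strain median was 0.12 within number 1 and -0.67 within number 2. YGP1, a secreted glycoprotein gene induced by nutrient limitation, had 1311 and 853 FPKM in U and 1059 and 293 in S, and library 2 of S was the lowest by far. The stress gene DDR2 had 73.5 and 53.1 FPKM in U, 150 in library 1 of S and 0 in library 2 of S, and it was called below U when library 1 of S was left out (adjusted p = 0.0028, limma). Of the 20 genes of trehalose and glycogen metabolism all were higher in library 1 of both strains (2940 of all 6339 rows). Their strain median was 0.25 within number 1 and -0.47 within number 2. TPS1, the trehalose-6-phosphate synthase gene, had 483 and 198 FPKM in U and 522 and 140 in S. No gene of these lists was called with all libraries in the fit, and 0 of the 30 stress genes had a 95% interval within 1 of 0, so a strain difference was not limited by these data there.

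In several purine and one-carbon genes library 2 of U was the highest of the 4. GCV1, a subunit gene of the glycine cleavage complex, had 189 FPKM in library 1 and 554 in library 2 of U, and 223 and 130 in S. SHM2, the cytosolic serine hydroxymethyltransferase gene, had 881 and 2488 FPKM in U and 923 and 844 in S. ADE17, which acts in the last steps of purine synthesis, had 798 and 1810 FPKM in U and 851 and 622 in S. In all 3 genes library 2 of U was the highest, and the strain difference was 0.24, 0.07 and 0.09 within number 1 against -2.08, -1.56 and -1.54 within number 2. GLN1, the glutamine synthetase gene, had the same order, with 1059 and 2119 FPKM in U and 1080 and 742 in S.

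As lists, 13 genes of glycine cleavage and one-carbon metabolism had a strain median of 0.05 within number 1 and -0.75 within number 2, and 19 purine genes -0.02 and -0.50. 14 of the 19 purine genes were higher in library 2 than in library 1 of both strains, beside 2018 of all 6339 rows. The list medians of library 1 minus library 2 were -0.67 in U and -0.23 in S. 9 of the purine genes were below U in both numbers (19% of all rows) and 1 above (20.7%), and 0 genes of either list were called. Without library 2 of U the difference of GCV1 was -0.15, and without library 1 of U it was -1.70. Targets of the amino acid regulator Gcn4 were also lower in library 1 of both strains, 39 of 42 of them (2018 of all 6339 rows), with a strain median of -0.04 and 0 called.

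Ribosomal protein genes differed between the strains by little. Of 135 tested, 126 had a 95% interval within 1 of 0, 0 were called, and the median was 0.04, with -0.09 within number 1 and 0.17 within number 2. The paralogs RPL35A and RPL35B, whose coding sequences are so similar that the counting could split reads between them, stood apart in 1 library. RPL35A had 2383 and 2362 FPKM in U and 2262 and 4810 in S, and RPL35B 1723 and 1601 in U and 1642 and 3819 in S. Library 2 of S was the highest in both genes, by 1.03 and 1.25 over library 2 of U on the log2 scale. All 61 ribosome biogenesis genes were lower in library 1 of both strains, beside 2018 of all 6339 rows. They had a strain median of 0.06, with 14 above U in both numbers (20.7% of all rows) and 0 called.

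No gene of membrane lipids, chromatin or the cell cycle was called. 15 of 28 genes of ergosterol and fatty acid synthesis were below U in both numbers and 1 above (19% and 20.7% of all rows), with a median of -0.04, and OLE1, the fatty acid desaturase gene, had 729 and 4461 FPKM in U and 696 and 3885 in S. Its library 2 was the higher in both strains. All 10 histone genes tested had an interval within 1 of 0, with a median of -0.07. Of 22 genes of G1 and S phase and 18 of mitosis and cell separation, 0 were called, and the medians were -0.08 and -0.04. In the iron regulon FIT3, a cell wall mannoprotein gene of siderophore retention, had 250 and 190 FPKM in U and 186 and 142 in S, lower in S by 0.42 within number 1 and 0.41 within number 2 and without overlap, with a 95% interval from -0.90 to 0.06. The 25 genes of that list had a median of 0.01 and 0 were called.

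Splicing genes differed little between the strains. Of 48 genes of pre-mRNA splicing, 47 had an interval within 1 of 0, with a median of 0.02 and 0 called. Of 8 genes of nonsense-mediated decay, which removes transcripts with early stop codons, all 8 had an interval within 1 of 0. Intron-containing genes outside the ribosomal proteins, 169 tested, had a median of -0.04, and 49 were below U in both numbers against 21 above (19% and 20.7% of all rows).

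Small nucleolar and other non-coding RNAs were the list that held a called gene. Of 109 such rows, 52 were listed at 0 in all 8 libraries and 56 were tested, of which 1 was called, SNR18, 8 were without overlap below U and 3 above (4.89% and 5.77% of all rows). SNR10, an H/ACA guide RNA gene, had 94.5 and 111 FPKM in U and 72.2 and 68.9 in S, lower in S without overlap by 0.53 (unadjusted p = 0.0097, adjusted p = 1, limma). The libraries were made from RNA selected for poly(A) tails, which mature small nucleolar RNAs lack, so these values measure the part that entered such a library. SNR48 was listed at 140 FPKM in library 2 of U and at 0 in the other 3, and it was called below U when library 1 of U was left out (adjusted p = 0.0099, limma).

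Rows above 0 in all 4 libraries, whose higher strain averaged 10 FPKM or more, with the same direction in both numbers and no overlap between the strains, were ranked by the smaller of the 2 within-number differences. In this ranking S was above U most in YDR510C-A, with 85.6 and 86.0 FPKM in U and 175 and 196 in S. Next came YOR034C-A, YHR007C-A and YIL175W. YHR007C-A had 7.37 and 7.52 FPKM in U and 29.7 and 14.1 in S, and the lowest unadjusted p of the rows above U without a 0 in any library, 0.0044. In the same ranking S was below U most in YDR003W-A, a frame of 123 bp with 235 and 188 FPKM in U and 64.5 and 109 in S and an unadjusted p of 0.0047, followed by YMR052C-A with 38.6 and 24.9 in U and 16.6 and 15.8 in S. Each of these rows had adjusted p = 1 (limma), and YHR007C-A passed when library 2 of S was left out (adjusted p = 0.0386, limma). Among named protein genes of this ranking, OST4, a small subunit gene of the oligosaccharyltransferase of 111 bp, had 559 and 743 FPKM in U and 381 and 421 in S. TDA6, of 1404 bp, had 64.8 and 40.3 FPKM in U and 36.3 and 27.4 in S. Rows with overlap were left out of the ranking, so its absence in these genes is no result. The 95% interval of the strain difference ran from -5.85 to 4.48 for OST4 and from -1.50 to 0.14 for TDA6. For YDR510C-A, first above U, it ran from -2.86 to 5.06.

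The number of Gcr1 motifs in a promoter had no visible relation to the strain difference at 6 h. CTTCC was searched on both strands, thus also as GGAAG, in the 600 bases before the start codon of 5749 genes, and 72.5% of these promoters held at least 1 match. Of the 17 glycolytic promoters 15 held at least 1. The median strain difference was -0.0065 for promoters without a match, 0.0014 with 1 and -0.0030 with 2. It was -0.0070 with 3 and 0.0029 with 4 or more. The quartiles were -0.076 and 0.057 without a match, and -0.067 and 0.069 with 4 or more. CDC19 and ENO2 hold 3 matches each and TDH3 holds 0. A match is a run of letters and not a measured binding site.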

How the data were processed

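The deposited table holds FPKM values made by the authors, rounded to at most 2 decimals, for 7126 rows and 8 libraries. The submitters' processing notes name bcl2fastq 1.8.2, FastQC 0.10.1, TopHat2 2.1.1, Cufflinks and the build sacCer3. For Cufflinks no version, settings or annotation is stated in the sources used here. In RefSeq R64, 6048 rows had their locus tag, 114 more their symbol, and 964 neither.

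From these values log2(FPKM + 1) was computed for 6339 rows whose mean reached 1 FPKM. One fit of limma 3.58.1 with a trend (R 4.3.3) covered the 4 groups (residual degrees of freedom 4, prior 2.33). Two-sided p-values were Benjamini-Hochberg adjusted across the rows tested. Within-number differences are library 1 of S minus library 1 of U, and likewise for library 2. The depth per sample is unknown, so no counting interval is given. Relative depth was taken from the whole-read steps of rows between 0.2 and 2 FPKM.

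The libraries, gene lists and tests were chosen with earlier results of these data known. Named were all called rows, the 10 rows in each direction with the largest smaller within-number difference (among rows above 0 in the 4 libraries, averaging 10 FPKM or more in the higher strain, without overlap), the 5 with the lowest p in each direction, all members of the glycolysis and Gcr1 lists, and up to 4 members of each other list. Which of these are printed was chosen after their values were seen. The computation was tested on simulated data. Alternatives were a pseudocount of 0.1, no filter and a filter at 10 FPKM, rows with a 0 left out, median-of-ratios scaling, quantile normalization, a replicate block, no trend, the 6 h libraries alone and each library left out. Tables were made with Python 3.11.15 and pandas 2.3.3.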

Additional observations from a re-analysis of the deposited data

Results flagged for a closer look

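The strain difference itself differed between 6 h and 12 h, by a test of that difference, in 5 rows, which are the rows called at 6 h. In limma's fit the strain difference at 12 h minus that at 6 h was 12.09 for SNR18 (log2(FPKM + 1); adjusted p = 1.5e-05), 10.24 for YCR038W-A (adjusted p = 5.4e-05), 6.12 for YMR272W-A (adjusted p = 0.0051), -3.76 for CPP3 (adjusted p = 0.0051) and -5.79 for PLS1 (adjusted p = 0.011). The size of each value depends on the pseudocount, since each row is listed at 0 in at least 1 group. YCR038W-A was above 0 in U alone at 6 h and in S alone at 12 h, with 33.7 and 33.8 FPKM in the libraries of either strain where it was present. CPP3 had 29.4 and 30.6 FPKM in U and 22.8 and 22.7 in S at 12 h, and SNR18 and PLS1 were listed at 0 in all 4 libraries then. For SNR18 and PLS1 the test of the change therefore repeats their difference at 6 h with its sign reversed.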

How the results depend on the processing

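The number of rows called between the strains at 6 h was 5 with a replicate block, also within each time, 5 without a filter, with the stricter filter, with either scaling and without a trend, and 4 with a pseudocount of 0.1 or with the 6 h libraries alone. Leaving out each library gave 5 to 7. The exceptions were the fits without rows listed at 0, with 0 calls and also 0 with a replicate block within each time, and there 0 rows were called for the change of the strain difference in either fit. Rows apart by at least 1 (log2) in both numbers fell from 24 to 2 with those rows left out. Each of the 5 called rows holds a 0 in some library, so the fits without such rows left all of them out by construction. SNR18, YMR272W-A and YCR038W-A were called in 18 of 18 alternatives, CPP3 in 16 and PLS1 in 15, the latter lost with a pseudocount of 0.1 (adjusted p = 0.15, limma). CPP3 was lost with the 6 h libraries alone, with and without a block (highest adjusted p = 0.15). The labels do not pair the libraries by number, and r = 0.872 between the number differences of U and S rests on 2 pairs. A block within each time raised the rows with an unadjusted p under 0.05 from 56 to 247. The fit of the 6 h libraries alone with a block was chosen after seeing the data. In these files 2 libraries per strain and an unknown depth limit what short rows can show.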
